A study of Rattus norvegicus with 18 samples.

Results

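CpG-sparse sites with high methylation are described here, in the striata of juvenile rats with a unilateral 6-OHDA lesion. The CpGs of chromosomes 1 to 20 of rn6 that were read in all 18 striata, with at least 10 reads per cytosine and both strands added up, gave a set of 292497 CpGs. A CpG was called sparse when at most 4 other CpGs of the set lay within 100 bp. It was called highly methylated when its mean methylation over the 6 striata of untreated (UNT) rats was over 80%. Both held for 105018 CpGs, which were 35.9% of the set and 44.6% of the 235675 sparse CpGs. The UNT values chose these members, so that their level in UNT rats and each comparison with UNT rats are given as a description.

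The striata came from 9 male Wistar rats, 3 per group, and all rats received 6-OHDA in the medial forebrain bundle on postnatal day 21, a toxin that destroys the dopaminergic fibres to the striatum of that side. UNT rats were given saline, L-DOPA rats were given L-DOPA with benserazide, and L-DOPA + R rats were given the same with Riluzole, an inhibitor of glutamate release, for 2 weeks from postnatal day 35 to 49. After a final treatment on postnatal day 53, the lesioned striatum and the contralateral (control) striatum of each rat were collected, which gave 6 striata per group. No group without a lesion was part of the study, and the control striatum belongs to a lesioned rat. DNA methylation was measured by reduced representation bisulfite sequencing (RRBS), and methylation data carry no expression markers with which the labelled tissue could be checked.

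Methylation of a CpG means a methyl group on the cytosine of both strands, which is copied to the new strand by a maintenance methyltransferase after replication. In mammals, most CpGs outside CpG islands are methylated, while the dense CpGs of islands at promoters are mostly free of methylation. Isolated CpGs between genes and in gene bodies are mostly methylated. RRBS, which reads the ends of MspI fragments, reaches only CpGs near a CCGG site.

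Between 18471279 and 49113957 calls were listed per striatum, with a median of 15 to 23 reads at the cytosines kept. With strands added up, the median coverage of a member was 37 to 62 reads per striatum in UNT, 24 to 36 under L-DOPA and 23 to 31 in L-DOPA + R. UNT striata were therefore read more deeply. In the spike-in controls, 98.1 to 98.7% of the reads of the methylated DNA and 0.302 to 0.928% of the reads of the unmethylated DNA were called methylated.

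High methylation was found more often at sparse than at dense CpGs. Sparse CpGs made up 80.6% of the set and 94.7% of its 110863 CpGs over 80% in UNT rats. This level was passed by 44.6% of the sparse CpGs and by 5845 of the 56822 dense CpGs (10.3%). The share of members fell with each further CpG nearby. Members made up 54.1% of the CpGs without another CpG of the set within 100 bp, 50.1% of those with 1, 44.4% of those with 2, 34.7% of those with 3 and 25.8% of those with 4. Accordingly, 26698 members had no neighbour from the set and 34454 had 1.

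Across the genome, members were spread over all 20 chromosomes. Chromosome 1 held the most, 10217, and the share of the CpGs of a chromosome that were members lay between 29.6% on chromosome 10 and 40.5% on chromosome 13. The nearest CpG of the set was at a median distance of 27 bp, and 18244 members (17.4%) had none within 1000 bp. Of all CpGs of the set within 100 bp of a member, counted once for each member, 85.8% were members too, 11.7% were sparse or dense CpGs with 20 to 80% methylation in UNT rats and 0.614% were below 20%. In the treated rats, whose methylation values the rule did not use, the mean methylation of these neighbours was 90.02% at 1 to 10 bp, 89.2% at 11 to 25 bp, 87.5% at 26 to 50 bp, 88.0% at 51 to 75 bp and 87.0% at 76 to 100 bp. As most of these neighbours are members, these values largely restate the level of the members.

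The members kept a high methylation level in each of the 18 striata. In UNT, the mean over members was 92.0, 91.9 and 91.7% in the control striata and 91.7, 91.7 and 92.2% in the lesioned striata. In L-DOPA, it was 91.2, 91.3 and 90.4% in the control striata and 91.3, 90.6 and 91.0% in the lesioned striata. In L-DOPA + R, it was 89.7, 90.2 and 90.6% in the control striata and 90.8, 89.8 and 90.5% in the lesioned striata. Striata of a group with the same replicate number were taken as the same rat. Over rats, the mean was 91.9% ± 0.0709 (SD, n = 3) in UNT, 91.0% ± 0.282 in L-DOPA rats and 90.3% ± 0.262 in L-DOPA + R. The 3 L-DOPA + R rats (90.01 to 90.5%) lay below the 3 L-DOPA rats (90.7 to 91.2%), while single striata of these groups overlapped. Depth differed in the same order as the level between UNT and treated striata, and its part in the level was not tested.

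**Figure D1:**
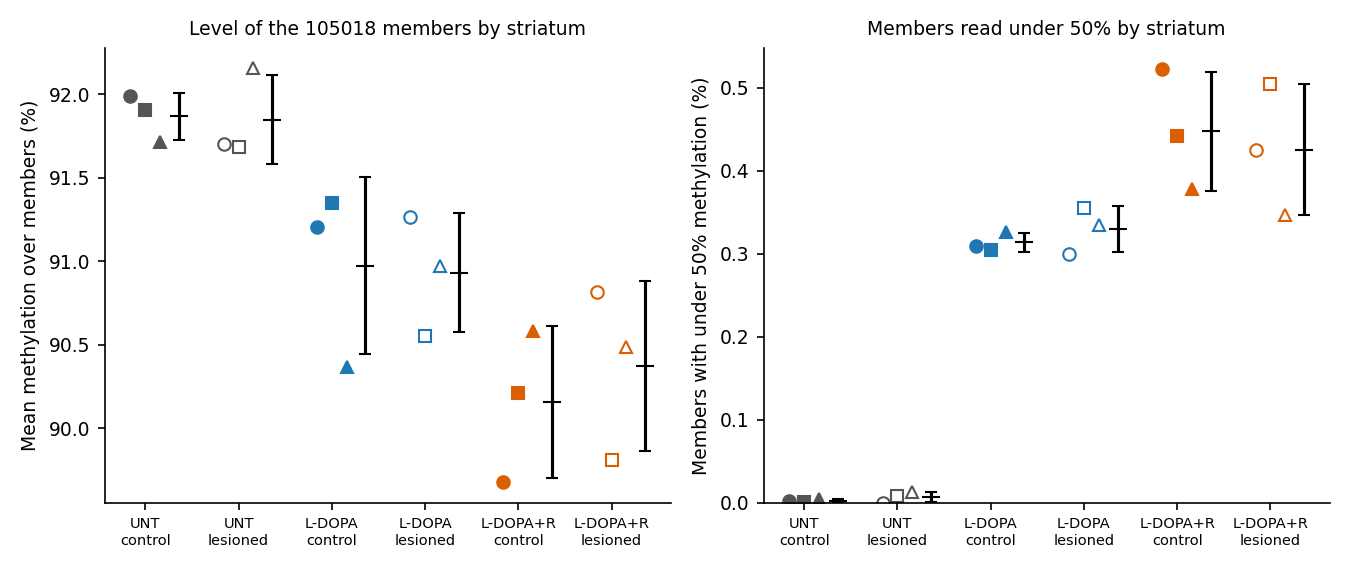
Mean methylation over the 105018 members (left, %, axis not from 0) and percentage of members with under 50% methylation (right) in each striatum. Circles, squares and triangles are rats 1, 2 and 3, filled for the control and open for the lesioned side, and bars are the mean ± SD over 3 striata. The UNT level, from which the members were chosen, lies between 91.7 and 92.2%, and treated striata lie between 89.7 and 91.3%.

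Since a threshold on UNT values favours CpGs that were read high in these rats, the rule was also applied to only 2 of the UNT rats, and the level was read in the third. The left-out rat had 91.6, 91.5 or 91.6%, depending on the rat. The same CpGs had 90.9% on average in L-DOPA rats in each case and 90.2% in L-DOPA + R rats. This choice was made after seeing the data.

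The level in treated rats followed the level in UNT rats. The 14045 members with 80 to 85% in UNT had a mean of 82.6% there, 81.7% in L-DOPA rats and 80.2% in L-DOPA + R. The 36228 members over 95% in UNT had 97.0, 95.9 and 95.6%. A mean over 80% was kept by 98401 members (93.7%) in L-DOPA, by 95297 (90.7%) in L-DOPA + R and by 93052 (88.6%) in both. Members with more neighbours were higher, with 91.2, 90.3 and 89.3% in UNT, L-DOPA and L-DOPA + R for those without a neighbour and 93.0, 92.3 and 91.9% for those with 4. For comparison, the 5845 dense CpGs over 80% had 93.6, 92.8 and 92.5%, and the 64812 sparse CpGs with 20 to 80% in UNT had 56.3, 54.8 and 52.2%. These differences between kinds of CpGs were not tested.

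Few members were far below this level. In each UNT striatum at most 13 members were read under 50%, against 315 to 373 in the L-DOPA striata and 364 to 548 in the L-DOPA + R striata. In UNT, the rule itself keeps such values rare. As a mean over the 6 striata of a group, 289 members were under 50% in L-DOPA rats and 274 with Riluzole.

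Most of these members had a cytosine at a particular distance from another. A member cytosine was sorted by its distance, along its strand, past another kept cytosine of the same strand. The 248 member cytosines at 50 bases that were read in all 18 striata had a mean of 91.4% in UNT, 71.0% in L-DOPA (69.9 to 71.9% in the 3 rats) and 69.0% in L-DOPA + R (68.3 to 69.98%). At 49 bases, the 987 cytosines had 91.5, 90.8 and 90.4%. At 51 bases, 161 cytosines had 92.5, 91.2 and 90.7%. Of the members under 50%, 262 (90.7%) in L-DOPA rats and 249 (90.9%) in L-DOPA + R rats had a cytosine at 50 bases. The study describes its reads as single-end and 50 bases long. For cytosines read in all 18 striata, mean coverage was 47.5 reads at 49 bases and 44.0 at 50 bases in UNT. It was 31.7 and 36.3 reads in L-DOPA rats, and 26.9 and 33.5 in L-DOPA + R rats, so that it was higher at 50 than at 49 bases in the treated groups and lower in UNT. Most member cytosines at 50 bases were not kept in UNT. Of 1287, between 341 and 411 (26.5 to 31.9%) had 10 reads in a UNT striatum, against 972 to 1188 in an L-DOPA striatum and 989 to 1164 in an L-DOPA + R striatum. At 49 bases, 1240 to 1324 of 1385 were kept in a UNT striatum, 1161 to 1290 in an L-DOPA striatum and 1181 to 1273 in an L-DOPA + R striatum. At members with a cytosine at 50 bases, treated rats and UNT rats were therefore often compared over different strands. The methods describe a single trimming for all reads, which also took further bases from the read ends. The labels do not say whether trimming or read length was the same in UNT and treated libraries. Such a difference could not be told apart from treatment, and its part in these values was not tested. Without cytosines at 50 bases, the mean level of the members was 91.9% in UNT, 91.2% under L-DOPA and 90.5% with Riluzole.

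The strands of a CpG were then compared. Of the 3285 members with both strands in all 12 treated striata, 257 had 1 of their strands, and not both, at 50 bases past a cytosine. That strand had 47.9% ± 0.296 (SD, n = 3 rats) under L-DOPA and 47.6% ± 0.628 under L-DOPA + R. The other strand of the same CpGs had 91.5% ± 0.218 and 90.7% ± 0.275. At 49 bases (123 members), the strands had 88.2% ± 0.824 and 91.0% ± 0.339 under L-DOPA and 88.0% ± 0.219 and 90.8% ± 0.909 under L-DOPA + R. At 48 bases (109 members), the strand at that distance and the other strand had 90.5 and 90.8% under L-DOPA and 90.1 and 90.3% under L-DOPA + R. At these 257 members, the low values were thus on average on the strand at 50 bases, and the other strand was methylated. Most members with a cytosine at 50 bases did not have both strands in all 12 treated striata and are not part of this comparison. In all, 1283 members (1.22%) had a cytosine at 50 bases, against 2.71% of the set, and they are marked wherever they are named.

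**Figure D2:**
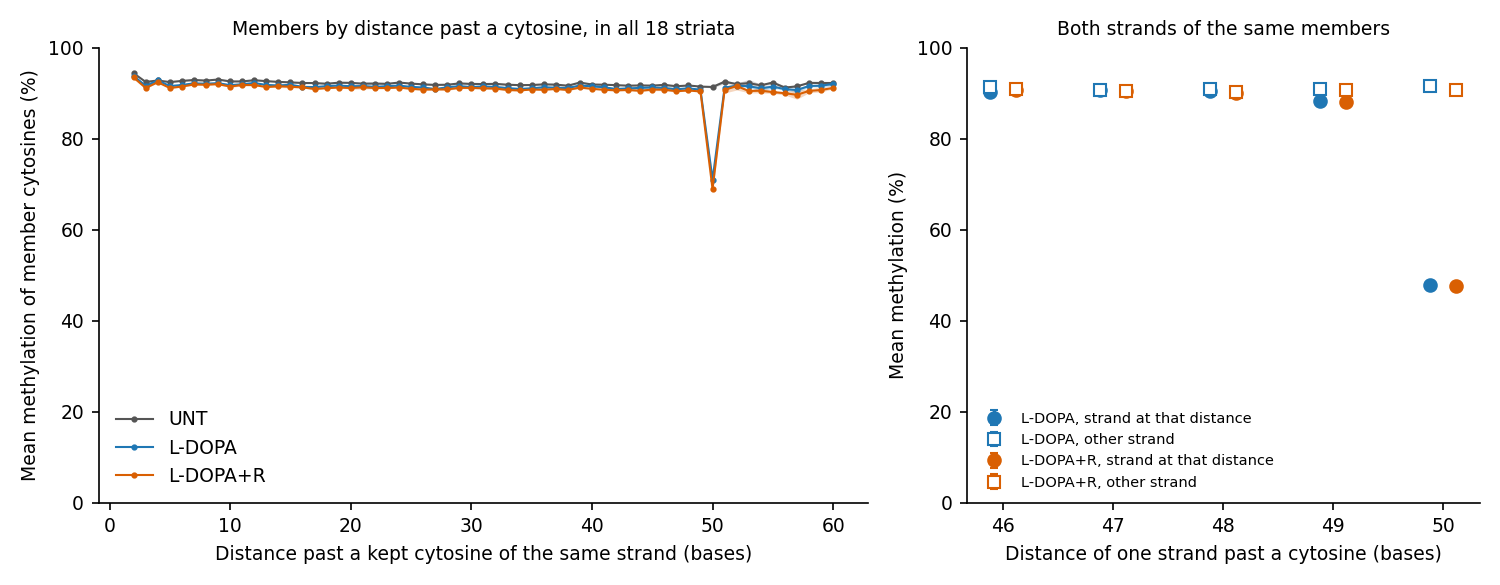
Left, mean methylation (%) of member cytosines read in all 18 striata, by the distance in bases (2 to 60) past a kept cytosine of the same strand, with the range over 3 rats shaded. Right, the strand at a distance of 46 to 50 bases (filled) and the other strand (open) of the same members in treated rats, as mean ± SD over 3 rats. At 50 bases, L-DOPA and L-DOPA + R rats are at 71.0 and 69.0% (left) and at 47.9 and 47.6% (right).

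L-DOPA + R and L-DOPA rats were compared to ask which members differ when Riluzole is added. The rule used no methylation value of these groups, but it asked for at least 10 reads per cytosine in their striata too. A member was called a differentially methylated site (DMS) when a logistic model with overdispersion correction gave a Benjamini-Hochberg q under 0.01 in the chi-square test, over all 568416 CpGs tested. There were 31 DMS among the members (0.0295%), while 0.0477% of all CpGs tested were called. Methylation was lower with Riluzole at 18 members and higher at 13, while 0.0276% of all CpGs tested were called lower and 0.0201% higher. The 31 DMS were on 14 chromosomes, with a median difference of -17.9 points for the lower and 10.7 points for the higher sites. The sizes reached from 2.71 to 74.7 points, and 6 were over 30 points. Over all members, the median difference was -0.475 points, and 2.49% differed by more than 10 points, against a median of 0 and 6.60% over all CpGs tested.

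At the 31 DMS, the 3 rats of each group did not overlap, and the 6 striata did not overlap at 26. Rats did not overlap at 11140 of all members (10.6%). The difference had the same sign on the control and the lesioned side at all 31. These sites were called on the same striata, so nothing is read from their separation or from the agreement of the sides. The 31 DMS had 35 other CpGs of the set within 100 bp, of which 21 differed in the same direction and 0 were DMS by the chi-square test. Only 1 of the DMS, on chromosome 18, had a cytosine at 50 bases. The same strand or strands were kept in all 12 treated striata at 27 of these 31 sites, against 82.5% of the members.

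The 12 members with the smallest p in this comparison are described. The UNT values beside them had to be high by the rule, so that nothing is read from which treated group is nearer to UNT. The site chr17:75159371, between genes, had 46.8, 44.0 and 33.6% in the 3 L-DOPA rats and 84.8, 83.6 and 78.9% in the 3 L-DOPA + R rats. The UNT rats had 89.6, 89.8 and 88.2%. The treated groups did not overlap, and the difference was 41.0 points (logistic model with a chi-square test, Benjamini-Hochberg q = 5.29e-16).

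At chr5:157248813, in an exon of Pla2g5, which encodes a secreted phospholipase A2, L-DOPA + R rats had 41.5, 44.2 and 41.0%, against 95.7, 86.8 and 80.4% in L-DOPA rats and 93.0, 83.9 and 84.5% in UNT rats. None of the L-DOPA + R striata was over 45.5% (14 to 25 reads each), and none of the L-DOPA striata was under 76.5%. The difference was -46.4 points (chi-square test of the logistic model, q = 2.17e-12).

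The smallest difference among the DMS was found at the most deeply read site, chr20:46083801. L-DOPA rats had 91.9, 92.0 and 91.9%, and L-DOPA + R rats had 95.05, 94.8 and 94.0%, with 1127 to 3939 reads per striatum. The difference was 2.71 points (chi-square test, q = 7.47e-12), and it was 6.31 points and no longer past the threshold when the strands were tested on their own. The treated groups differed in their mix of strands at this site. The reverse strand had 1218 to 2225 reads per L-DOPA striatum and 29 to 45 per L-DOPA + R striatum, with 89.3 and 95.6% methylated, while the forward strand had 95.4 and 94.6%. UNT rats had 95.1, 93.3 and 94.9%.

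An intronic site of Dis3l2, the gene of an RNA exonuclease, at chr9:93914371 had 62.5, 50.9 and 49.2% in L-DOPA rats and 84.4, 88.9 and 95.1% in L-DOPA + R rats. The UNT rats had 84.6, 80 and 92.3%. The difference was 35.4 points (chi-square test, q = 1.15e-06), from 12 to 34 reads per treated striatum.

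At 2 sites, methylation differed in large steps between rats of the same group. The site chr11:30184957, between genes, was at 100% in all 6 UNT striata and at 95 to 100% in the L-DOPA + R striata. The L-DOPA rats had 41.4, 61.3 and 0%, and the rat at 0% had 0% in both striata (0 of 15 and 0 of 23 reads). The site chr1:127322195, in an exon of Aldh1a3, which encodes a retinaldehyde dehydrogenase, had 0, 54.7 and 0% in the L-DOPA + R rats. In the 2 rats at 0%, none of the 29 to 61 reads of a striatum was methylated, and the rat between them had 51.2 and 57.7% in its striata. The L-DOPA rats had 93.7, 98.1 and 95.3% at this site, and the UNT rats had 93.6, 94.2 and 95.2%. The differences were 64.5 and -74.7 points (chi-square test, q = 8.91e-06 and 3.9e-05), and neither site passed the threshold with the rat as the unit.

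Ptger3, the gene of the prostaglandin E2 receptor EP3, had an intronic site at chr2:263962140 without another CpG of the set within 100 bp. It had 94.1, 97.6 and 87.8% in L-DOPA rats and 69.6, 73.7 and 78.5% in L-DOPA + R rats. The UNT rats had 82.5, 88.9 and 81.5%. The difference was -18.0 points (chi-square test, q = 2.78e-05).

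In an intron of Agap1, which encodes a GTPase-activating protein of Arf proteins, the site chr9:96948298 had 89.4, 84.8 and 88.9% in L-DOPA rats and 50.8, 66.7 and 72.9% in L-DOPA + R rats. The difference was -24.3 points (chi-square test, q = 6.96e-05). UNT rats had 83.3, 81.7 and 77.4%.

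The other 4 of the 12 sites followed. At chr5:53890535, L-DOPA rats had 89.7, 90.8 and 93.4% and L-DOPA + R rats had 97.3, 97.1 and 95.6%, a difference of 4.96 points, with 128 to 953 and 218 to 1676 reads per striatum. At chr1:252272227, between genes, the rats had 100, 97.0 and 100% in L-DOPA rats and 86.5, 86.0 and 81.8% in L-DOPA + R (-14.2 points). At chr15:103109675, also between genes, they had 95.5, 92.3 and 93.8% against 76.9, 76.7 and 80.5% (-16.03 points). All 3 sites had groups of rats that did not overlap, and the q values of the chi-square test were 3.83e-05, 7.35e-05 and 0.000241. At chr5:14687963, between genes, L-DOPA rats had 91.9, 92.3 and 90.3% and L-DOPA + R rats had 73.7, 73.1 and 84.8% (-14.1 points, chi-square test, q = 0.000399). The sites of Ptger3, Agap1 and chr5:14687963 did not pass the threshold with the rat as the unit.

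**Figure D3:**
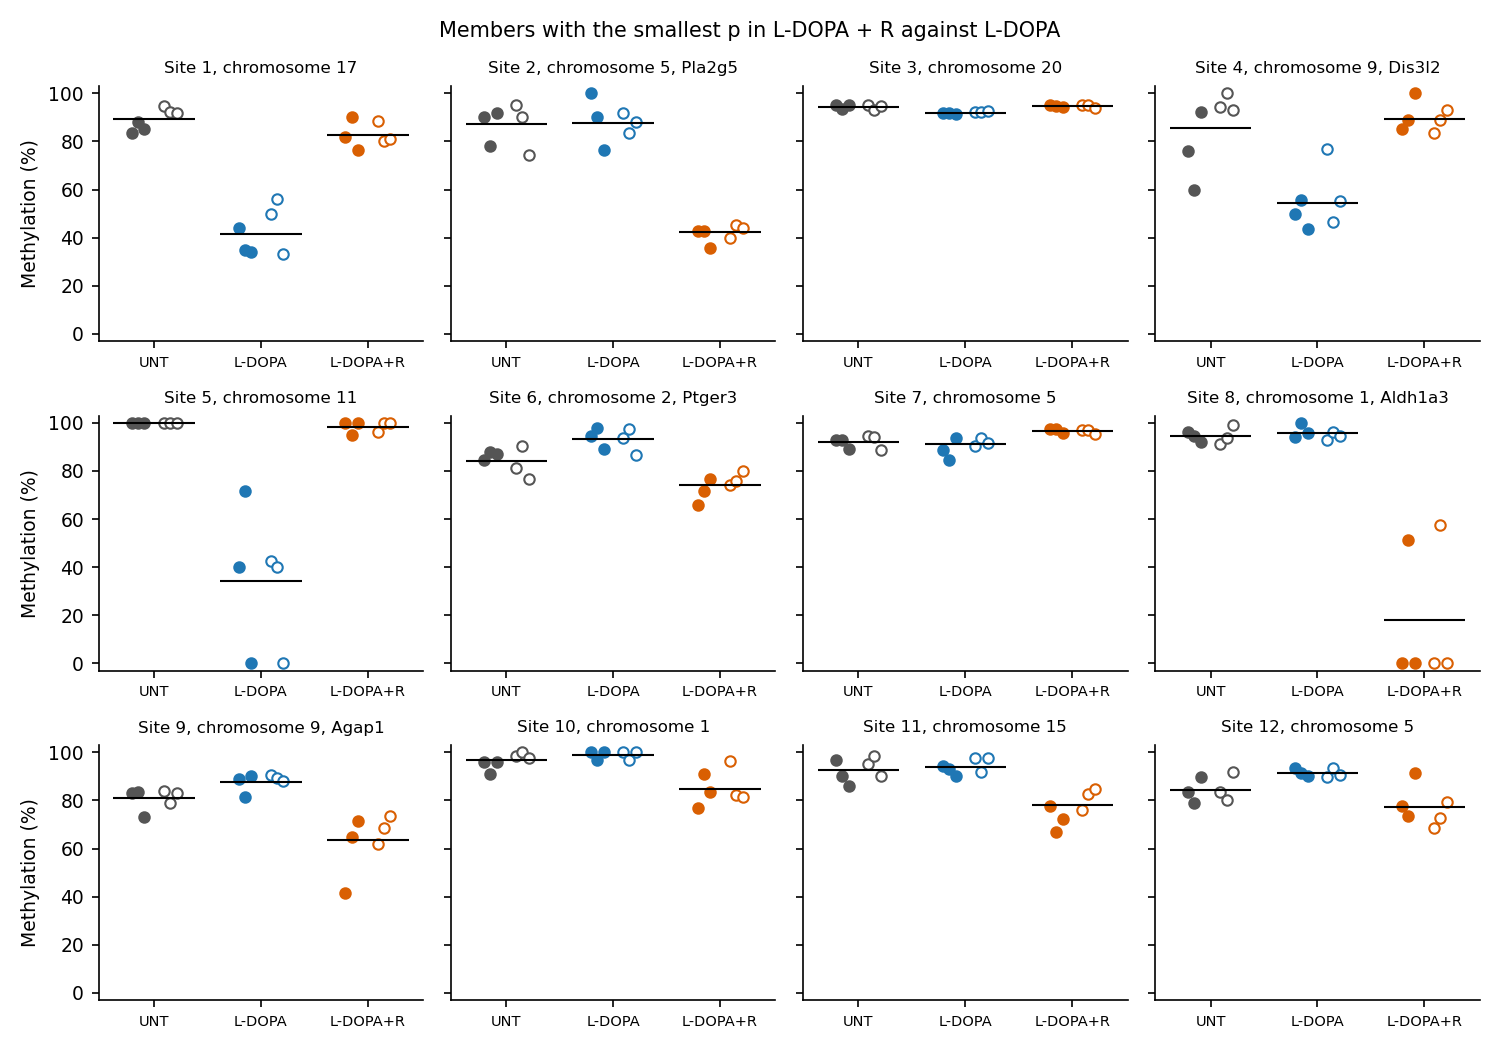
Methylation (%) in each of the 18 striata at the 12 members with the smallest p in L-DOPA + R against L-DOPA, in the order of p. Filled circles are control striata, open circles are lesioned striata, and lines are means over 3 rats. L-DOPA striata are low at site 1 (33.3 to 56.2%), L-DOPA + R striata are low at site 2 (35.7 to 45.5%), and sites 5 and 8 show 0% in some rats.

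Each striatum entered the test as a sample, although a rat gave 2 striata, and the p-values do not take this into account. With the reads of both striata added up, 21 members were called, 16 of them among the 31, and 193 CpGs were called over all tested. With the F test, 0 members and 2 of all CpGs tested were called. With this test, 4824 members had an unadjusted p under 0.05, against 8000 in the chi-square test. Without L-DOPA rat 1, 17 members were DMS, 6 lower and 11 higher, of which 9 were among the 31, and 231 CpGs were called over all tested. Without L-DOPA rat 2, there were 11 lower and 25 higher, and 342 over all CpGs tested.

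The lesion side made almost no difference that passed the test. In L-DOPA rats, 1 member (0.000952%) was lower on the lesioned side, while 0.00101% of all 395600 CpGs tested were called. This site, chr6:133776580, had 92.1, 95.8 and 92.2% in the control striata and 85.1, 80.9 and 79.7% in the lesioned striata, from 168 to 257 reads. The difference was -11.1 points (chi-square test, q = 0.00688), and the site did not pass the threshold without L-DOPA rat 2 or without rat 3. The lesioned striata were also the lower ones at this site in UNT (90.7, 88.9 and 89.4% against 93.9, 93.9 and 94.1%) and in L-DOPA + R (88.7, 84.5 and 88.5% against 90.5, 93.0 and 90.9%). In L-DOPA + R rats, 0 members were called by the chi-square test, 0.00176% of all 397652 CpGs tested were called, and 8380 members had an unadjusted p under 0.05. With the F test, 0 members were called in either group, with 1096 and 1538 under this p. As both striata with a number were taken to be from the same rat, the replicate number was also used as a block. This gave 7 members in L-DOPA, without chr6:133776580, and 6 in L-DOPA + R, and 23 and 32 over all CpGs tested.

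In UNT rats, whose striata the rule used, 2 members were called, against 0.00193% of all CpGs tested, and nothing is read from this count. Both were named with their values known. The site chr5:170821098 had 75, 81.2 and 87.2% in the control striata and 100% in each lesioned striatum. The site chr20:29149890 had 92.4, 96.4 and 90.5% in the control striata and 71.8, 68.2 and 69.2% in the lesioned striata. In treated rats, the sides overlapped at both sites. With the replicate number as a block, 8 members were called, and 29 over all CpGs tested.

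Whether the difference between L-DOPA + R and L-DOPA depends on the side was tested with an interaction term in the 303723 CpGs present in all 12 treated striata. Of these, 2 passed the threshold (0.000658%), and both were members. At chr18:24760589, the control striata had 79.2, 81.2 and 70.6% in L-DOPA rats and 100% in each L-DOPA + R striatum, whereas the lesioned striata had 95.5, 100 and 89.5% in L-DOPA rats and 76.5, 71.4 and 80% in L-DOPA + R. The order of the groups was thus opposite on the sides, and the interaction was -41.2 points (logistic model with a chi-square test, q = 0.00869) from 11 to 35 reads per striatum. The other site, chr2:221536698, lies 50 bases past a cytosine on a strand. It had 10, 32.4 and 26.3% on the control side and 0% in each lesioned striatum in L-DOPA, and 32.5, 9.68 and 26.8% on the control side and 38.9, 46.2 and 51.4% on the lesioned side in L-DOPA + R, an interaction of 46.6 points (chi-square test, q = 0.00869). The strand at 50 bases had at most 10% in each treated striatum. The other strand, with 73.3 to 100% in the treated striata where it was kept, was kept in 2 of 3 control and 0 of 3 lesioned striata under L-DOPA, and in 2 of 3 control and all 3 lesioned striata with Riluzole. The summed values therefore differed in their mix of strands. With the F test, 0 members passed, with 3922 at an unadjusted p under 0.05. Leaving out any L-DOPA rat, or L-DOPA + R rat 3, left 0 members, without L-DOPA + R rat 1 there was 1, and without L-DOPA + R rat 2 there were 2, 1 of them shared.

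Among the 6 treated rats, 50.6% of the members had a range under 10 points, against 55.5% of all CpGs of the set. The range over these rats, with the reads of both striata added up, had a median of 9.87 points. It had a median of 8.74 points over all CpGs of the set, 7.75 points for dense CpGs over 80% and 19.3 points for sparse CpGs with 20 to 80%. The median SD over the 6 rats of both treatments was 3.76 points. Counting error alone, with reads taken as independent, would give 3.52 at the same depth. All 6 treated rats were over 80% at 76446 members (72.8%). At 143 members all 6 were under 50%.

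A range of at least 50 points was found at 101 members (0.0962%), against 0.284% of all CpGs of the set, 0.0855% of dense CpGs over 80% and 0.821% of sparse CpGs with 20 to 80%. At 46 of these, 1 rat was under 50%, at 22 it was 2 rats and at 14 it was 3. The difference between rats of a group was 29.6 points on average at these members, and the difference between the striata of a rat was 11.4 points. As these members were chosen for their range between rats, nothing is read from this. Members at 50 bases past a cytosine made up 17 of the 101 (16.8%), and the kept strands differed among the treated striata at 31 of the 101. Each of the 6 rats was under 50% at 27 to 37 of the 101 members, and was the only such rat at 4 to 12. Without L-DOPA rat 2, 66 members had this range. In steps, with each rat under 15%, between 35 and 65% or over 85% and not all in the same class, were 118 members (0.112%), against 0.171% of all CpGs of the set and 0.387% of sparse CpGs with 20 to 80%. Of the 118 members, 24 had a rat under 15%.

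**Figure D4:**
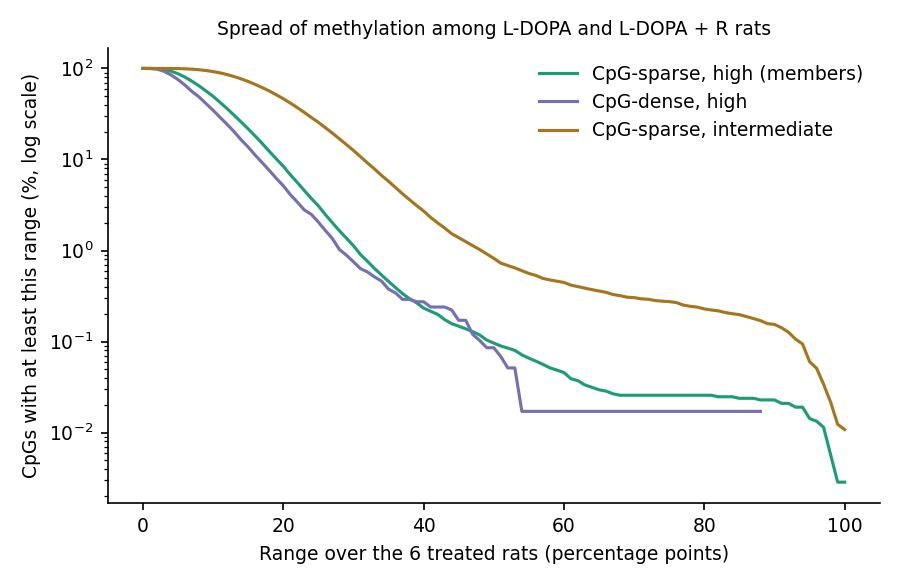
Percentage of CpGs (log scale) with at least a given range of methylation over the 6 treated rats (percentage points, reads of both striata added up), for members, dense CpGs over 80% and sparse CpGs with 20 to 80% in UNT. At 50 points the curves are at 0.0962, 0.0855 and 0.821%.

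Compared with UNT, DMS among the members were nearly all lower in treated rats. In L-DOPA, 652 members (0.621%) were called against 0.351% of all 654563 CpGs tested. Of these, 642 were lower and 10 higher, while 0.269% of all CpGs tested were called lower and 0.0828% higher. In L-DOPA + R, 731 members (0.696%) were called against 0.445% of all 643889 CpGs, with 718 lower and 13 higher. Over all CpGs tested, 0.361% were called lower and 0.0839% higher in L-DOPA + R. As the members had to be high in UNT, nothing is read from these counts or their direction. Both comparisons share the UNT rats, and 527 members were called in both, which were 80.8% of the first and 72.1% of the second list. A cytosine at 50 bases was present at 536 of the 642 lower members (83.5%) and at 540 of the 718 (75.2%). Outside 46 to 50 bases, 94 and 164 lower members were left, with median differences of -15.9 and -17.7 points. Without cytosines at 50 bases in the data, 88 and 152 members were called, and 1028 and 1447 over all CpGs tested. With the strands tested on their own, 229 and 297 members were called.

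The lower members with the smallest p against UNT all had a strand at 50 bases. At chr15:5837938, UNT rats had 100, 98.4 and 95.7%, L-DOPA rats 27.6, 31.8 and 29.8% and L-DOPA + R rats 37.5, 35.1 and 33.8%. The forward strand of this site, at 50 bases, was kept in 0 of 6 UNT striata and had 1.90% under L-DOPA (68 to 107 reads per striatum) and 1.56% with Riluzole (54 to 113 reads). Its reverse strand had 98.2% in UNT (31 to 51 reads), 91.2% under L-DOPA (34 to 48 reads) and 95.8% with Riluzole (27 to 68 reads). The low values were thus on a strand without a UNT value. At chr16:31328569, the rats had 97.1, 94.9 and 92.8%, then 54.9, 59.4 and 55.4%, and 52.0, 46.4 and 49.6%. The sites chr5:121325019, chr7:36965966 and chr15:48346859 had 91.6, 96.9 and 96.0% over UNT rats, 31.4, 35.4 and 26.3% over L-DOPA rats and 30.7, 35.8 and 20.6% over L-DOPA + R rats. A strand at 50 bases was kept in 0 of 6 UNT striata at each of these 3 sites, and had 3.797, 2.59 and 4.76% under L-DOPA. At chr15:48346859, the forward strand is at 50 bases too and was kept in all 6 UNT striata, with 95.9% in UNT, 40.7% under L-DOPA and 29.1% with Riluzole. At chr16:31328569, the strand at 50 bases was kept in all 6 UNT striata, with 95.04% in UNT, 43.3% under L-DOPA and 33.5% with Riluzole, and the other strand had 94.7, 96.2 and 96.8%.

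The 3 higher members with the smallest p were the same in both comparisons. The site chr9:11729896 had 80.4, 83.3 and 82.5% in UNT rats, 94.0, 93.6 and 95.1% in L-DOPA rats and 93.0, 95.7 and 89.3% in L-DOPA + R rats. The site chr8:122548592, between genes, had 75.7, 84.2 and 81.7%, then 97.6, 100 and 97.6%, and 97.6, 100 and 98.0%. At chr12:44821612, between genes and 47 bases past a cytosine, it was 83.4, 83.9 and 84.97%, then 96.6, 97.6 and 99.2%, and 95.3, 94.0 and 97.6%. None of the treated rats overlapped with UNT rats at these sites. The reverse strand of chr12:44821612 had 62.1% in UNT, 96.7% under L-DOPA and 95.9% with Riluzole, and its forward strand had 96.0, 98.1 and 96.0%. The other sites were kept on a single strand.

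Regions and genes are known here only for members that the study listed as DMS, which were selected on these samples. Of 528 such members, 330 (62.5%) were intergenic, 128 intronic, 61 exonic and 9 in promoters. Lists of genes with a role in striatal signalling were searched among them, and 0 listed members were called in L-DOPA + R against L-DOPA by the chi-square test. The called site of the receptor gene Ptger3 is in none of these lists. Of 26 glutamate receptor genes, 3 had a listed member, 1 each. Of 26 genes of synapse and axon, 6 had 7 listed members. Of 35 genes of dopamine and cAMP signalling and of 22 genes of calcium channels and AMPA receptor auxiliary subunits, 1 each had a listed member, and of 12 genes of DNA methylation 0. Against UNT, 3 members of the glutamate list and 5 of the synapse list were called lower in L-DOPA, and 2 and 4 in L-DOPA + R, while 0.269 and 0.361% of all CpGs tested were called lower. As the members searched were selected as DMS on these samples, nothing is read from these counts. All others were not called. Of these lists, 2 and 3 members had a strand at 50 bases.

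Among glutamate receptors, an intronic site of Grid1, which encodes a delta type receptor subunit, had 96.5, 90.5 and 94.9% in UNT rats, 48.4, 55.3 and 49.1% in L-DOPA rats and 59.6, 61.4 and 59.0% in L-DOPA + R rats (chr16:11450077). The intronic site of Grm4, a metabotropic receptor of presynaptic terminals, had 93.3, 95.3 and 97.3%, then 53.7, 31.2 and 50.7%, and 50, 54.1 and 59.6% (chr20:6977959). Both have a strand at 50 bases, which was kept in all 6 UNT striata. At the Grm4 site, this strand had 94.3, 34.8 and 38.6%, and the other strand, kept in 5, 3 and 4 of 6 striata, had 96.2, 97.2 and 90.4%. The site of the related receptor gene Grm8 (chr4:55304947, intron) has none, and had 87.5, 88.1 and 90.3%, then 79.3, 77.5 and 76.3%, and 85.7, 87.0 and 79.7%.

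The reelin pathway, in which the secreted protein reelin acts through the adaptor Dab1 in neurons, had 3 of the sites. In an intron of Dab1, UNT rats had 95.6, 98.8 and 94.96%, L-DOPA rats 59.3, 62.2 and 57.4% and L-DOPA + R rats 61.5, 52.6 and 56.3% (chr5:124257817, strand at 50 bases). The strand at 50 bases had 96.04, 38.5 and 31.6% over the groups, and the other strand 96.3, 93.2 and 91.9%. An intronic site of Reln at chr4:9457439 had 95.9, 100 and 98.9%, then 56.2, 85.7 and 74.1%, and 67.7, 51.2 and 70%. The forward strand of this site had 98.1% in UNT, 98.1% under L-DOPA and 96.2% with Riluzole, and the reverse strand 97.7, 39.8 and 22.6%, kept in 3, 5 and 5 of 6 striata. Rats differed widely at this site, and L-DOPA + R rat 1 had 100% in the control and 23.1% in the lesioned striatum (18 and 13 reads). The second intronic site of Reln, chr4:9574423, had 96.8, 92.7 and 91.1% in UNT, then 86.4, 54.2 and 53.2%, and 87.9, 90.6 and 92.2%.

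A further site of this list was in an intron of the axon guidance receptor gene Robo3 (chr8:39900347). It had 90.9, 90.2 and 94.6% in UNT rats, 54.9, 50.9 and 60.2% in L-DOPA rats and 76.4, 53.8 and 58.3% in L-DOPA + R rats, and it has a strand at 50 bases, which was kept in 0 of 6 UNT striata and in 5 of 6 L-DOPA + R striata. The sites of Nrg1, a ligand of ErbB receptors (chr16:63989396, intron), and of Nlgn2, an adhesion protein of inhibitory synapses (chr10:56435908, exon), were not called. Nrg1 had 89.9, 82.3 and 72.6% and Nlgn2 had 85.002, 84.2 and 94.3% over UNT, L-DOPA and L-DOPA + R rats. The same holds for the calcium channel subunit gene Cacna2d3 (chr16:5562976, intron), with 96.9, 95.8 and 89.6%, and for the cAMP phosphodiesterase gene Pde4d (chr2:41304368, intron), with 95.4, 83.6 and 87.6%.

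The CpGs closest to the threshold of 80% are given as a description. The members just inside, chr8:126426679, chr20:45520254 and chr1:3009254, had 83.3, 83.9 and 77.7% over L-DOPA rats and 75.8, 81.9 and 82.5% over L-DOPA + R rats. The sparse CpGs just outside, chr6:133606773, chr5:141170882 and chr7:36400751, had 80.1, 85.9 and 74.7% over L-DOPA rats and 71.1, 86.9 and 82.9% over L-DOPA + R rats. The UNT means of all 6 were 80% when rounded.

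Members were mostly read on a single strand. Both strands were present in all 18 striata for 2923 members (2.78%), and 80559 (76.7%) were only ever kept on 1 strand, against 65.2% of the set. In the 3285 members with both strands in all 12 treated striata, the median difference between the strands in treated rats was 1.96 points, and it was over 20 points at 162 members (4.93%). Of these 162, 152 were among the 259 members with 1 or both strands at 50 bases, and 10 were among the other 3026 (0.330%).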

How the data were processed

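RRBS of the control and lesioned striatum of 9 rats was used, as deposited for 18 striata. The authors sequenced single-end reads of 50 bases, trimmed them with Trim Galore 0.4.0 in its RRBS mode, which also shortens the 3′ ends, and mapped them to rn6 with Bismark, version 014.3 in the submitters' processing notes. For each cytosine of a CpG and strand, the authors deposited the coverage as a count of reads, without normalization, and the percent of reads that were C (methylated) or T. Methylated read counts were rebuilt from both and rounded to whole reads. Spike-in contigs were used for conversion alone.

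Python 3.11.15, numpy 2.4.6, pandas 2.3.3, scipy 1.17.1 and matplotlib 3.10.9 were used. A cytosine needed at least 10 reads in a striatum, and strands were added up. As in the study, each CpG was tested by logistic regression corrected for overdispersion, by the chi-square test, and DMS had a q under 0.01. No minimum difference was asked for. The study corrected for the false discovery rate, by a procedure not given in the sources used here. Adding up the strands, overdispersion from Pearson residuals (at least 1) and Benjamini-Hochberg adjustment over all CpGs tested were chosen here. Treatments were compared at CpGs in at least 4 of 6 striata per group, and sides at CpGs in all 6. Each striatum was a sample. Differences in points come from the summed reads of each group, and mean ± SD values are over rats. The method was also run on simulated read counts that had counting error alone. These had no spread between striata or rats and no mix of strands, so the run does not show how the test handles them. A single striatum gives a CpG only in steps of a few points, and all percentages carry counting error that was not given as an interval.

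The members, gene lists and tests were chosen with earlier results of these data known. Sites were named by a rule: the 12 members with the smallest p in L-DOPA + R against L-DOPA, members called for the sides of treated rats or the interaction, the 3 smallest p in each direction against UNT, the 12 smallest p of members in listed genes, and 3 CpGs on each side of the threshold of 80%. An item withheld for evaluation is not reported here. Alternatives were a minimum of 20 reads, a coverage limit at the 99.9th percentile, no cytosines at 50 or at 46 to 50 bases, strands apart, the F test, no overdispersion correction, q over CpGs in all 18 striata, a replicate block, the rat as the unit, each replicate left out, other thresholds of the rule (70%, 90%, 2 CpGs) and a range of 30 points. Leaving a UNT rat out of the rule and comparing the strands of a CpG were chosen after seeing the data.

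The replicate number was taken to pair the striata of a rat, as each rat gave a lesioned and a control striatum. The titles give a side and a number and do not say that equal numbers are the same rat. Deviations from the group means correlated weakly across members between striata of a group with the same number (r from 0.00892 to 0.0379). Pairs with different numbers in a group overlapped with these values (r from -0.0295 to 0.0166), and the pairing remains an assumption. Across treatments, equal numbers are not the same animal. Genomic regions and gene names were taken from the positions in the supplementary tables of the study. Sequences of the sites and the annotation of all members were not analysed here.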

Additional observations from a re-analysis of the deposited data

Results flagged for a closer look

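A striatum far from the other 5 of its treatment was seen in 4 of 114 groups of 6 that were looked at, over the named sites and the levels of the members, where chance alone marks about 1 in 20. At the Dis3l2 site chr9:93914371, the lesioned striatum of L-DOPA rat 1 had 76.7% (30 reads), and the other L-DOPA striata had 43.8 to 55.6%. At the Agap1 site chr9:96948298, the control striatum of L-DOPA rat 2 had 81.6% against 88.0 to 90.5% in the others. At the same site, the control striatum of L-DOPA + R rat 1 had 41.7% against 62.1 to 73.5% in the others. At the Robo3 site chr8:39900347, which has a strand at 50 bases, the control striatum of L-DOPA + R rat 1 had 100% (19 reads) against 50 to 63.9% in the others, and it was the L-DOPA + R striatum in which the strand at 50 bases was not kept.

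The difference between L-DOPA + R and L-DOPA depended on the side at 2 members by the interaction term, with 46.6 points at chr2:221536698, which has a strand at 50 bases and a different mix of strands among the striata, and -41.2 points at chr18:24760589, where the difference on the lesioned side is taken minus that on the control side.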

How the results depend on the processing

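For the 12 sites named in L-DOPA + R against L-DOPA, the site of the sides and the 2 of the interaction, 215 values were computed under the alternatives, of which 162 kept their direction and their side of the threshold, 53 kept their direction without passing it and 0 reversed. The difference itself is unchanged by the F test, the overdispersion correction, the CpGs used for q, the replicate block and the rat as the unit. No reversal was possible there, and nothing is read from the 0. Other named sites were not recomputed. The counts of members called in L-DOPA + R against L-DOPA (31) were 0 with the F test, 198 without the overdispersion correction, 17 for members over 90%, and 17 to 41 with a rat left out. Over all CpGs tested, 271 were called in the main test, 2 with the F test and 1621 without the correction. Against UNT, L-DOPA (652) gave 342 at 20 reads, 88 without 50 bases, 62 without 46 to 50 bases, 229 with strands apart, 220 with the F test, 430 over 90% and 572 to 643 with a rat left out. L-DOPA + R (731) gave 426, 152, 107, 297, 200, 462 and 640 to 729 in the same order, and 1447 without the correction. For the sides, UNT (2) gave 1 at 20 reads, 1 without 46 to 50 bases, 1 with strands apart, 0 with the F test, 15 without the correction, 1 over 90% and 3 to 6 with a rat left out. L-DOPA (1) gave 3 at 20 reads, 0 with the coverage limit, without 50 or 46 to 50 bases, with strands apart and with the F test, 19 without the correction and 1 to 4 with a rat left out. L-DOPA + R (0) gave 2 at 20 reads, 9 without the correction and 2 to 9 with a rat left out, and the interaction (2) gave 0 with the F test, 8 without the correction and 0 to 2 with a rat left out.

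The replicate block gave 54 members in L-DOPA + R against L-DOPA, where the number does not pair rats, and 8, 7 and 6 for the sides of UNT, L-DOPA and L-DOPA + R. Over all CpGs tested, these were 530, 29, 23 and 32. The mean level in UNT was 91.7% at 20 reads, 89.4% over 70%, 94.9% over 90% and 91.7% with at most 2 other CpGs, and 91.5 to 91.6% in a rat left out of the rule. L-DOPA had 88.4% over 70% and 94.0% over 90%, and L-DOPA + R had 87.5, 93.6 and, with at most 2 other CpGs, 89.99%. Members with a range of 50 points (101) were 25 at 20 reads, 179 over 70%, 54 over 90%, 1185 at 30 points and 66 to 90 with a rat left out. Fewer CpGs enter at 20 reads and over 90%, and the cause of the other changes was not tested. Depth was lower in treated striata, with a median of 23 to 36 reads per member against 37 to 62 in UNT.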
